A study of Homo sapiens with 6 samples.

Results

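RAB proteins are the largest branch of the RAS-like small GTPases, and each marks a set of membranes in the cell. A RAB with GTP bound recruits effectors such as tethers, motors and kinases, and it is switched on by a guanine nucleotide exchange factor and off by a GTPase-activating protein. Geranylgeranyl groups added to the protein's tail anchor it in the membrane, and GDP dissociation inhibitors take it off again. In breast epithelial cells the RAB11 group returns receptors from endosomes to the surface, RAB5 and RAB7 act at successive stages of the route to the lysosome, and RAB3 and RAB27 proteins dock secretory vesicles.

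The members are the protein-coding genes whose symbol is RAB followed by a number and at most a letter and a further digit. The rule goes by symbol and uses no measured value, although it was set with earlier results of these data known. The rule found 63 of the 60656 rows of the count table. They were assigned from general knowledge of the proteins to the steps between the endoplasmic reticulum (ER) and the Golgi (14 members), exocytic vesicles (12), early endosomes (7), recycling (10), late endosomes and lysosomes (13) and other or uncertain sites (7). Many RAB proteins act at more than a single compartment, so each was placed at a single site by judgement. Of the members that passed the threshold below, RAB27B, RAB31, RAB12 and RAB29 were marked as acting at several. The counts by compartment therefore depend on where these were placed.

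The cells were parental ZR-75-1, an oestrogen receptor-positive human breast cancer line. The groups were 3 libraries of cells grown with DMSO, the solvent, and 3 libraries of cells grown with 500 nM abemaciclib, an inhibitor of the cell-cycle kinases CDK4 and CDK6, both for 4 days. The study's methods describe the libraries as independent biological replicates of a single experiment in this line, so the spread between them is that of cultures within it. Libraries of RB1 knockout cells were not used here.

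The totals were 3317860 to 3473916 counts with DMSO and 3344919 to 4013156 with abemaciclib, so that 3 counts, the limit a count of 0 allows, came to between 0.736 and 0.904 CPM (the count scaled to a common library size). All 8 luminal epithelial markers, among them ESR1, KRT8 and GATA3, passed the filter on low counts. The defining basal markers KRT5, KRT14 and TP63 and the immune markers PTPRC, CD3E and CD14 had 0 counts in all 6 libraries. The mesenchymal markers VIM, COL1A2 and PDGFRB were at 0 too, ZEB1 had 0 to 6 counts a library, the immune marker CD68 had 1 count in a single library, and COL1A1 was at 12.99 CPM with DMSO and 12.5 CPM with abemaciclib. MKI67, a proliferation gene, had a log2 fold change of -6.71. Bulk counts cannot tell apart a lower level per cell and fewer cells that express a gene, and the place of the members' differences in the change in proliferation was not tested.

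The promoters of a few members are shown here because they hold a palindrome that transcription factors of the MITF and TFE family and of the MYC family can bind, CACGTG, and the first of them belongs to the RAB transcript with the largest rise. Sequences are from RefSeq on GRCh38.p14, where 50 of the 63 members matched a window from 250 bases before to 50 after the gene's start. CACGTG is its own reverse complement, so a match lies on both strands. Capitals mark the motif in 30 bases written in the direction of the gene:
RAB29, chr1:205775446-205775475, minus strand: caggcaaccctgCACGTGacgcttgcggag
RAB31, chr18:9708229-9708258, plus strand: ccggccggcggcCACGTGacccaccgcggc
RAB5A, chr3:19946964-19946993, plus strand: cactcgcagggtCACGTGacatcctgcctc
RAB21, chr12:71754831-71754860, plus strand: ggcaccggcgctCACGTGacccgaggtgtg
RAB4A, chr1:229270997-229271026, plus strand: gcccagcccgcgCACGTGcttccggcgcgc
RAB24, chr5:177303732-177303761, minus strand: cggcgcccgcgcCACGTGaccttgcggccc

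These 6 promoters are 12% of the 50 matched, beside 7.43% of all 27305 promoters in the table. The transcripts behind them did not share a direction: RAB29 rose and RAB31 fell, RAB5A, RAB21 and RAB4A did not pass the test, and RAB24 had too few counts to be tested. RAB25 was the only member matched whose promoter held TGACGTCA, the full cAMP response element, which is also its own reverse complement and which 1.98% of all promoters held:
RAB25, chr1:156061087-156061116, plus strand: tcgaacctgtcTGACGTCAtcatctctcca

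No matched member held the full palindromic oestrogen response element, present in 0.0659% of all promoters, or TTTGGCGC, an E2F motif present in 0.659%. TTCCCGC, a second E2F motif searched on both strands, was in 3 members (RAB21, RAB35 and RAB39A) or 6.0%, beside 6.56% of all promoters. TTTGAA, the cell-cycle homology region, was in 6 members (RAB29, RAB11B, RAB28, RAB9A, RAB40A and RAB6B) or 12%, beside 15.4%. Only RAB29 of these passed the test, so its promoter held both this motif and CACGTG. A match is only a match of letters.

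Of the 63 members, 44 passed the filter on low counts. In abemaciclib 7 transcripts rose and 5 fell at an adjusted P under 0.05 (edgeR quasi-likelihood test, Benjamini-Hochberg over 10863 genes), which is 27.3% of the members tested beside 25.7% of all genes tested. By direction, 15.9% of the members rose beside 12.5% of all genes, and 11.4% fell beside 13.3%. The set was thus close to the background in how often its members changed. Its changes were of modest size: the log2 fold changes ran from -1.75 to 1.07, with a median of 0.08 beside -0.00 for all genes, and a median size of 0.24 beside 0.32. The libraries of the groups did not overlap for 17 of the 44 members, or 38.6%, beside 39.1% of all genes: 9 lay higher with abemaciclib, where 19.1% of all genes did, and 8 lower, where 20.0% did.

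The transcripts that rose were RAB30 of the Golgi, RAB3A and RAB26 of exocytic vesicles, RAB5B of early endosomes, RAB11A and RAB25 of recycling endosomes and RAB29 of the lysosomal group. Those that fell were RAB27B of exocytic vesicles, RAB31 of early endosomes, RAB12 of the recycling group, RAB32 of lysosome-related organelles and RAB23 of the primary cilium. Except at the ER and Golgi and among the other members, every compartment held both a transcript that rose and a transcript that fell. Libraries were made by a method that yields a read at the 3′ end of a transcript, so that CPM can be set side by side between genes without a correction for length.

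**Figure D1:**
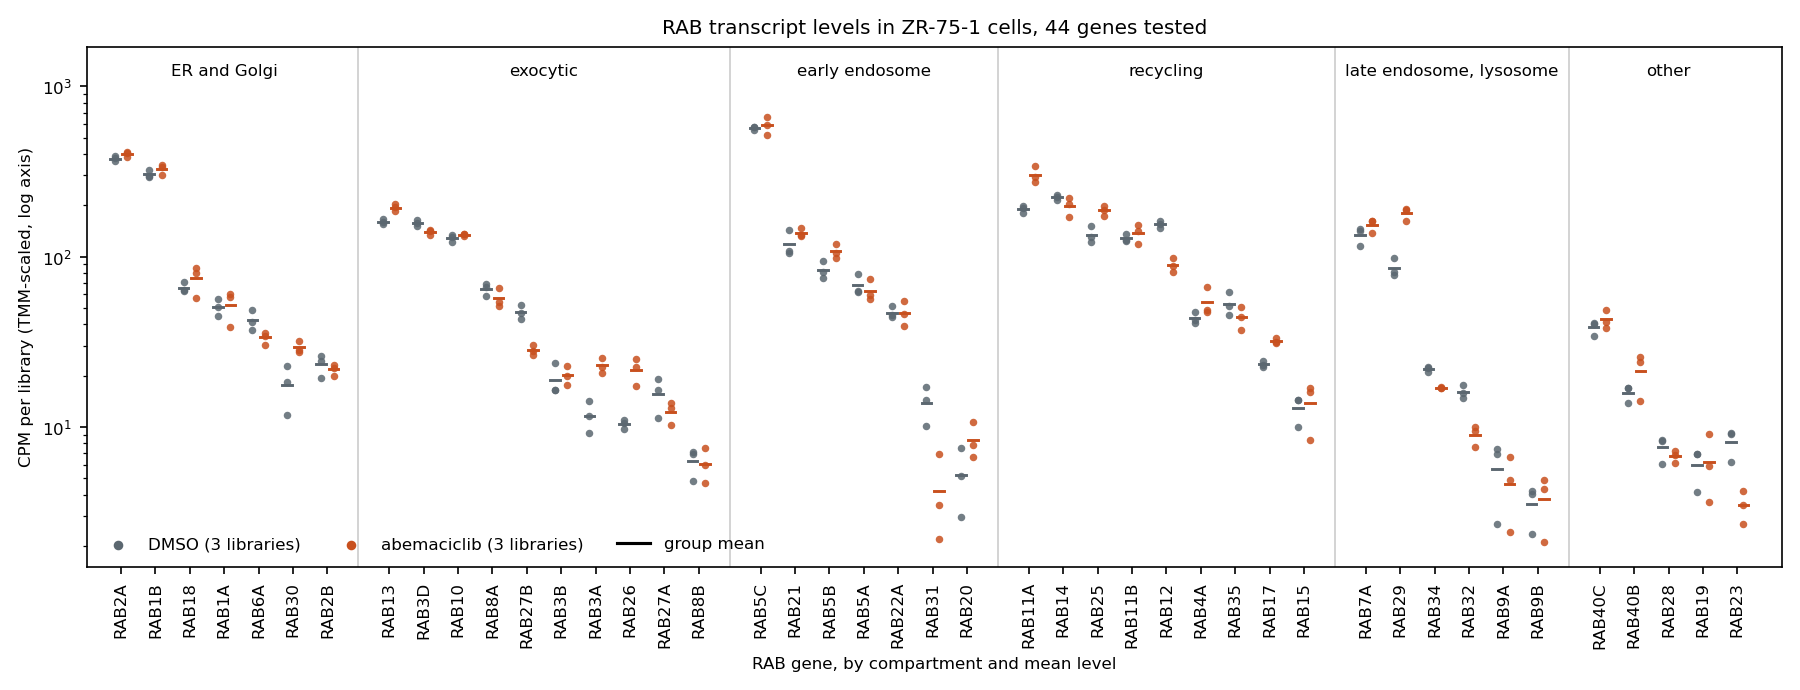
Level of the 44 RAB transcripts tested, in CPM scaled by TMM on a log axis, with a point for each of the 3 DMSO and 3 abemaciclib libraries and a line at each group's mean. Within a compartment genes run from high to low, and RAB5C, RAB2A and RAB1B stand highest in both groups.

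The family's level rested on few members. RAB5C, RAB2A and RAB1B held 33.0% of the summed CPM of all 63 members, 14 of the 44 tested members had a mean of at least 100 CPM, and 8 had a mean under 10 CPM. The summed level of the members was 3732, 3760 and 3671 CPM in the DMSO libraries and 4082, 4014 and 4031 CPM in the abemaciclib libraries. The groups did not overlap and their means stood at a ratio of 1.09, or 1.07 with total counts as the only scaling. Without RAB29 and RAB11A the sums were 3445 ± 37.0 and 3561 ± 61.7 CPM (SD, n = 3 each), a ratio of 1.03, so that these transcripts made up most of the difference.

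Between the ER and the Golgi, 1 of the 7 members tested rose and 0 fell, which is 14.3% beside 25.7% of all genes. At an unadjusted P under 0.05 there was likewise none lower. RAB2A, which acts at the Golgi and in delivery to lysosomes, was the most abundant of this group, at 364.9, 387.0 and 377.7 CPM with DMSO and 383.5, 413.5 and 403.9 CPM with abemaciclib. Its groups overlapped, and its log2 fold change of 0.09 had a 95% interval from -0.10 to 0.28 (adjusted P = 0.536). RAB1B and RAB1A, the GTPases of ER-to-Golgi transport, had log2 fold changes of 0.10 and 0.05, and RAB18, of the ER and lipid droplets, had 0.18. RAB6A, which directs retrograde traffic at the Golgi, had a log2 fold change of -0.34 with an interval from -0.69 to 0.01, and its abemaciclib libraries all lay below its DMSO libraries.

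RAB30, a Golgi GTPase of chromosome 11 (82973133 to 83071923 on GRCh38, minus strand), was the exception. It was at 22.8, 11.8 and 18.4 CPM with DMSO and at 28.3, 32.2 and 27.7 CPM with abemaciclib. All abemaciclib libraries lay above all DMSO libraries, a 1.66-fold rise (log2 fold change 0.73, SE 0.23, adjusted P = 0.016). The lowest value was that of DMSO replicate 2, and the call was lost without that library or without abemaciclib replicate 2 (adjusted P up to 0.130).

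Among the 12 GTPases of exocytic vesicles 10 were tested, of which 2 rose and 1 fell. The share called was only slightly above the 25.7% of all genes. RAB3A, which marks synaptic vesicles and other regulated secretory vesicles, and RAB26, also of secretory granules, were low transcripts that about doubled. RAB3A (chromosome 19, 18196784 to 18204042) was at 11.5, 9.16 and 14.2 CPM with DMSO and at 20.8, 25.5 and 22.6 CPM with abemaciclib. All abemaciclib values exceeded all DMSO values, a 1.98-fold difference (log2 fold change 0.98, SE 0.24, adjusted P = 0.003202). MPV17L2 is annotated on the opposite strand over the 3′ end of RAB3A, and whether reads were counted by strand is not given in the sources used here, so its reads may be mixed. RAB26 (chromosome 16, 2140803 to 2154165) was at 11.0, 9.75 and 10.5 CPM with DMSO and at 17.5, 25.03 and 22.6 CPM with abemaciclib. It too was higher in all 3 abemaciclib libraries (log2 fold change 1.06, SE 0.25, adjusted P = 0.002025).

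RAB27B, which docks secretory vesicles at the plasma membrane, moved the other way. It lies on chromosome 18 (54717860 to 54895516) and was at 43.3, 52.0 and 46.7 CPM with DMSO and at 26.5, 28.0 and 30.1 CPM with abemaciclib. Every abemaciclib library was lower than every DMSO library, a 1.68-fold fall (log2 fold change -0.75, SE 0.17, adjusted P = 0.001343). Its close relative RAB27A, at 10.2 to 19.2 CPM over the 6 libraries, had a log2 fold change of -0.35 with a wide interval, from -0.91 to 0.21, and did not pass the test (adjusted P = 0.390).

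RAB13, a GTPase of polarised delivery to cell junctions, was the most abundant exocytic member and lay just outside the threshold. It was at 167.0, 160.7 and 154.5 CPM with DMSO and at 203.8, 184.3 and 194.4 CPM with abemaciclib. The groups did not overlap, and the log2 fold change was 0.27 with an interval from 0.06 to 0.48 (adjusted P = 0.05139). It passed with DESeq2's size factors and without abemaciclib replicate 3, at an adjusted P as low as 0.04426. RAB10 and RAB8A, which carry vesicles to the plasma membrane and the cilium, had log2 fold changes of 0.07 and -0.19, and RAB3D of exocrine granules had -0.18 (interval from -0.40 to 0.04). An unnamed gene, ENSG00000285641, is annotated on the same strand at the 3′ end of RAB13, and HSH2D at that of RAB8A. Either could affect the counts of these members and their family shares.

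**Figure D2:**
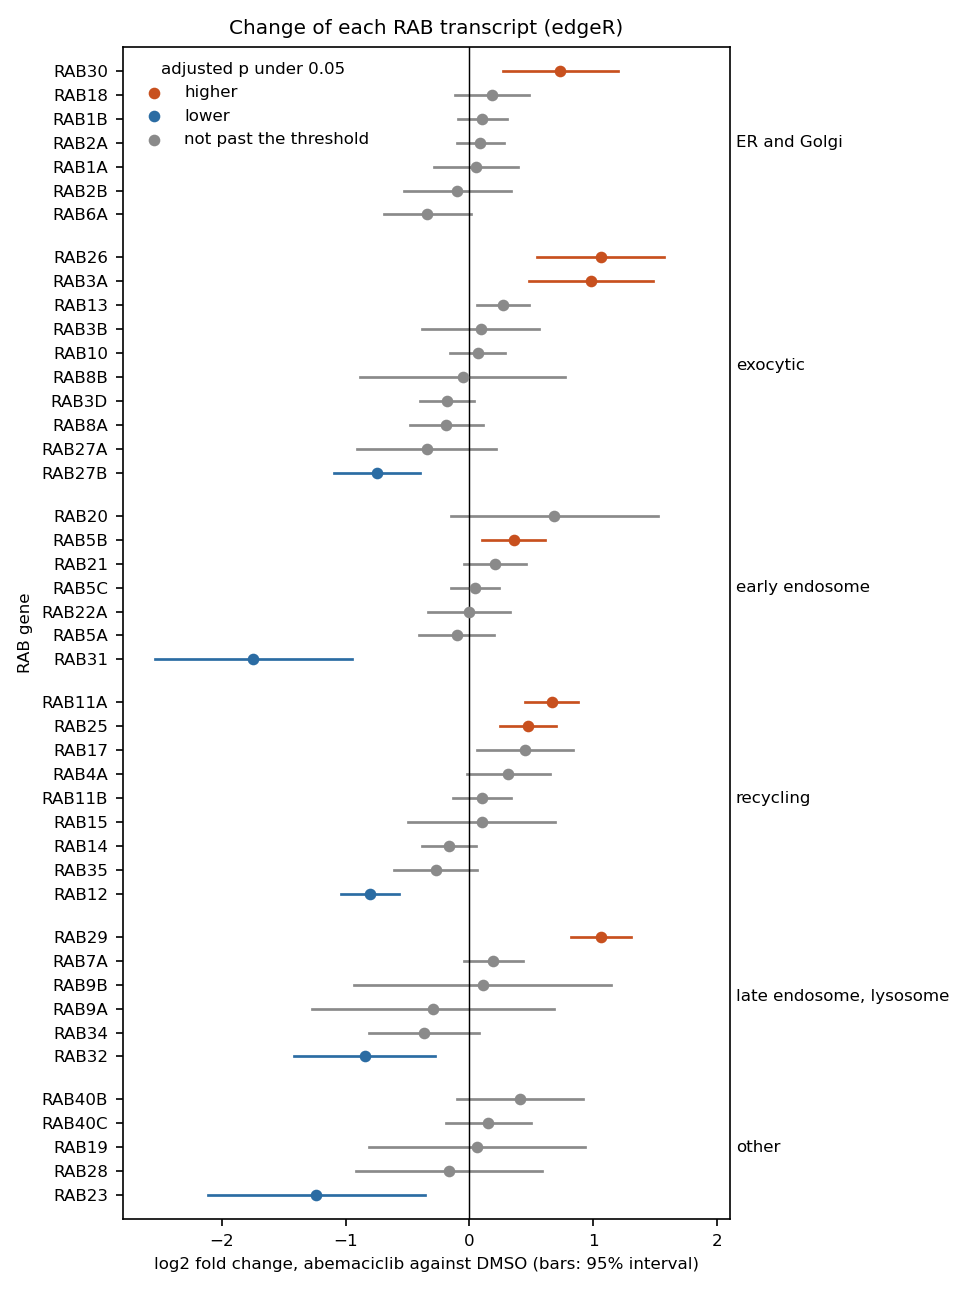
Log2 fold change of each tested RAB transcript, abemaciclib against DMSO, with its 95% interval and genes grouped by compartment; colour shows whether the adjusted P was under 0.05. RAB29 at 1.07 has the largest rise and RAB31 at -1.75 the largest fall, and 32 of the 44 transcripts did not pass the threshold.

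All 7 GTPases of the early endosome were tested, and 1 rose and 1 fell (28.6%, beside 25.7% of all genes). The RAB5 proteins drive fusion of early endosomes. RAB5C, the most abundant RAB transcript in these cells, was at 553.8, 577.2 and 577.5 CPM with DMSO and at 656.6, 592.7 and 516.3 CPM with abemaciclib. Its abemaciclib libraries lay on both sides of the DMSO libraries (log2 fold change 0.05, interval from -0.15 to 0.24, adjusted P = 0.778), and the sign turned without abemaciclib replicate 1 (-0.037). RAB5A was at 78.8, 62.6 and 62.1 CPM with DMSO and at 59.3, 56.2 and 74.0 CPM with abemaciclib. These groups overlapped as well (log2 fold change -0.10, interval from -0.40 to 0.20, adjusted P = 0.662), and the value was 0.014 without DMSO replicate 1.

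RAB5B (chromosome 12, 55973913 to 55996683) was the RAB5 transcript that rose. It was at 94.0, 75.3 and 81.6 CPM with DMSO and at 118.3, 98.4 and 105.1 CPM with abemaciclib. The groups did not overlap, but the difference was small, at 1.28-fold (log2 fold change 0.36, SE 0.13, adjusted P = 0.0357). The call was lost with DESeq2, with the replicate number as a block, and without DMSO replicate 2, DMSO replicate 3 or abemaciclib replicate 1, with an adjusted P of up to 0.190.

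RAB31, also known as RAB22B, works between the trans-Golgi network and endosomes and had the largest fall of all members. It lies on chromosome 18 (9708275 to 9862551) and was at 10.1, 17.1 and 14.5 CPM with DMSO and at 6.92, 2.21 and 3.50 CPM with abemaciclib. All abemaciclib libraries were lower, by 3.35-fold in the fit (log2 fold change -1.75, SE 0.39, adjusted P = 0.001139). The call held in all 11 alternatives that tested the gene, with log2 fold changes from -2.28 to -1.42. RAB22A, its close relative, was at 44.3 to 51.1 CPM with DMSO and at 39.1 to 54.9 CPM with abemaciclib and had a log2 fold change of -0.00, with an interval from -0.33 to 0.33. RAB21, of integrin endocytosis, and RAB20 did not pass either (0.21 and 0.69).

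Of the 10 recycling members 9 were tested, and 2 rose and 1 fell (33.3%, beside 25.7% of all genes). RAB11A, which returns cargo from the perinuclear recycling endosome, was at 192.1, 198.8 and 180.7 CPM with DMSO and at 292.6, 272.9 and 339.9 CPM with abemaciclib. It lies on chromosome 15 (65726054 to 65891989). The groups were far apart relative to their spread, with a 1.58-fold rise (log2 fold change 0.66, SE 0.10, adjusted P = 1.474e-05). RAB25, the epithelial RAB11 relative on chromosome 1 (156061160 to 156070504), was at 130.1, 122.0 and 151.8 CPM with DMSO and at 199.3, 186.8 and 173.7 CPM with abemaciclib. All abemaciclib libraries were again higher (log2 fold change 0.47, SE 0.11, adjusted P = 0.002028). Both calls held in all 12 other fits. RAB11B, the third of the group, was at 123.8 to 136.2 CPM with DMSO and at 118.9 to 153.2 CPM with abemaciclib and did not pass (log2 fold change 0.10, interval from -0.14 to 0.33).

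RAB12, which takes part in sorting the transferrin receptor towards degradation and is also a substrate of the kinase LRRK2, fell. It lies on chromosome 18 (8609437 to 8639383) and was at 155.5, 162.5 and 146.4 CPM with DMSO and at 98.1, 87.6 and 81.2 CPM with abemaciclib. Every abemaciclib library lay below every DMSO library, a 1.74-fold fall (log2 fold change -0.80, SE 0.11, adjusted P = 3.604e-06) that held in all 12 other fits. RAB17, an epithelial GTPase of apical recycling, was at 23.1, 24.5 and 22.6 CPM with DMSO and at 31.0, 31.4 and 33.3 CPM with abemaciclib. Its groups did not overlap and its interval lay above 0 (0.06 to 0.83 around a log2 fold change of 0.45), but its adjusted P was 0.0804. RAB4A and RAB35 of fast recycling had log2 fold changes of 0.31 and -0.27, RAB14 had -0.17 and RAB15 had 0.10, all short of the threshold.

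In the late endosome and lysosome group 6 of 13 members were tested, and 1 rose and 1 fell (33.3%, beside 25.7% of all genes). RAB7A, the GTPase of fusion between late endosomes and lysosomes, was at 146.2, 140.9 and 115.4 CPM with DMSO and at 137.6, 161.2 and 161.1 CPM with abemaciclib. The groups overlapped, with a log2 fold change of 0.19, an interval from -0.04 to 0.43 and an adjusted P of 0.240. RAB9A, which recovers mannose 6-phosphate receptors, was at 2.42 to 7.39 CPM over the 6 libraries, and its interval, from -1.28 to 0.68, shows how little could be seen at that level.

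RAB29, also called RAB7L1, recruits LRRK2 to the trans-Golgi network and to stressed lysosomes, and it had the largest rise of all members. It lies on chromosome 1 (205767986 to 205775482, minus strand) and was at 98.7, 78.3 and 80.7 CPM with DMSO and at 162.6, 190.0 and 186.6 CPM with abemaciclib. The lowest abemaciclib library was well above the highest DMSO library, and the rise was 2.09-fold (log2 fold change 1.07, SE 0.12, adjusted P = 5.135e-08), holding in all 12 other fits with log2 fold changes from 1.00 to 1.17. The summed level of the late endosome and lysosome members was 269 ± 26.9 CPM with DMSO and 369 ± 27.8 CPM with abemaciclib (SD, n = 3 each). Without RAB29 the sums were 183 ± 19.5 and 189 ± 12.9 CPM (SD, n = 3 each), so that nearly the whole difference in the sum was this transcript.

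RAB32, its close relative, which sorts cargo to lysosome-related organelles, fell. It lies on chromosome 6 (146543833 to 146554953) and was at 15.9, 17.7 and 14.8 CPM with DMSO and at 9.93, 7.61 and 9.41 CPM with abemaciclib. No abemaciclib library reached a DMSO library (log2 fold change -0.85, SE 0.28, adjusted P = 0.0239), but DESeq2 did not call it, nor did edgeR when DMSO replicate 1, DMSO replicate 2 or abemaciclib replicate 2 was left out (adjusted P up to 0.0968).

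Of the members at other sites 5 of 7 were tested and 1 fell (20.0%, beside 25.7% of all genes). RAB23, a ciliary protein that restrains Hedgehog signalling, lies on chromosome 6 (57186992 to 57222307) and was at 9.23, 6.20 and 9.04 CPM with DMSO and at 4.22, 2.7 and 3.50 CPM with abemaciclib. The abemaciclib libraries were all lower (log2 fold change -1.24, SE 0.43, adjusted P = 0.0326). BAG2 lies on the opposite strand at its 3′ end, and the call was lost with DESeq2, with the replicate number as a block and without any of 4 single libraries (DMSO replicates 1 and 3, abemaciclib replicates 2 and 3; adjusted P up to 0.115). RAB40C, which belongs to an E3 ubiquitin ligase, was the most abundant of these members, at 41.0, 40.2 and 34.0 CPM with DMSO and 48.8, 41.5 and 38.2 CPM with abemaciclib. Its libraries overlapped (log2 fold change 0.15, interval from -0.19 to 0.49, adjusted P = 0.556).

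Close paralogues were then set against each other within a library, as the share of a family's counts that each held, a measure that needs no scaling between libraries. With 3 libraries against 3, the smallest P an exact two-sided permutation test can give is 0.1, so none of these shares could pass the threshold; 28 shares of 11 families were compared, and the lowest Benjamini-Hochberg adjusted value was 0.255. RAB31 held 16.5, 27.9 and 24.2% of the RAB22A and RAB31 counts with DMSO and 15.03, 4.57 and 5.99% with abemaciclib. The groups did not overlap, although the nearest libraries were close (difference in means -14.4 percentage points, exact permutation P = 0.1).

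In the family of RAB29, RAB32 and RAB38, RAB29 held 86.2, 81.5 and 84.3% with DMSO and 94.2, 96.2 and 95.2% with abemaciclib, and RAB32 held 13.9, 18.5 and 15.4% against 5.76, 3.85 and 4.80%. The gap of 11.2 percentage points for RAB29 was wide beside the spread between libraries, at the smallest P possible (exact permutation P = 0.1). RAB3A went from 6.19 ± 1.4% to 12.6 ± 1.6% of the RAB3 counts in group means while RAB3D, the main RAB3 transcript, moved from 83.8 ± 0.5% to 76.4 ± 1.1% (SD, n = 3 each; exact permutation P = 0.1 for both).

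In the RAB11 family, RAB11A held 41.9, 44.7 and 39.4% with DMSO and 45.4, 45.4 and 53.7% with abemaciclib, and RAB11B held 29.7, 27.8 and 27.5% against 23.8, 23.6 and 18.8%. RAB25 kept a like share, at 29.7 ± 3.0% and 29.8 ± 2.0% (SD, n = 3 each; exact permutation P = 0.9). RAB5B went from 11.6 ± 1.2% to 14.2 ± 1.0% of RAB5 counts, RAB13 from 44.7 ± 1.5% to 49.6 ± 0.5% and RAB8A from 17.9 ± 1.3% to 14.5 ± 1.3% of the RAB8, RAB10 and RAB13 counts (SD, n = 3 each), and in all 3 the groups did not overlap. The RAB27B share overlapped between groups, at 75.4 ± 3.5% and 69.6 ± 4.4% (SD, n = 3 each; exact permutation P = 0.3), as did the shares of RAB1B (85.8 and 86.2%) and RAB2A (94.2 and 94.8%).

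**Figure D3:**
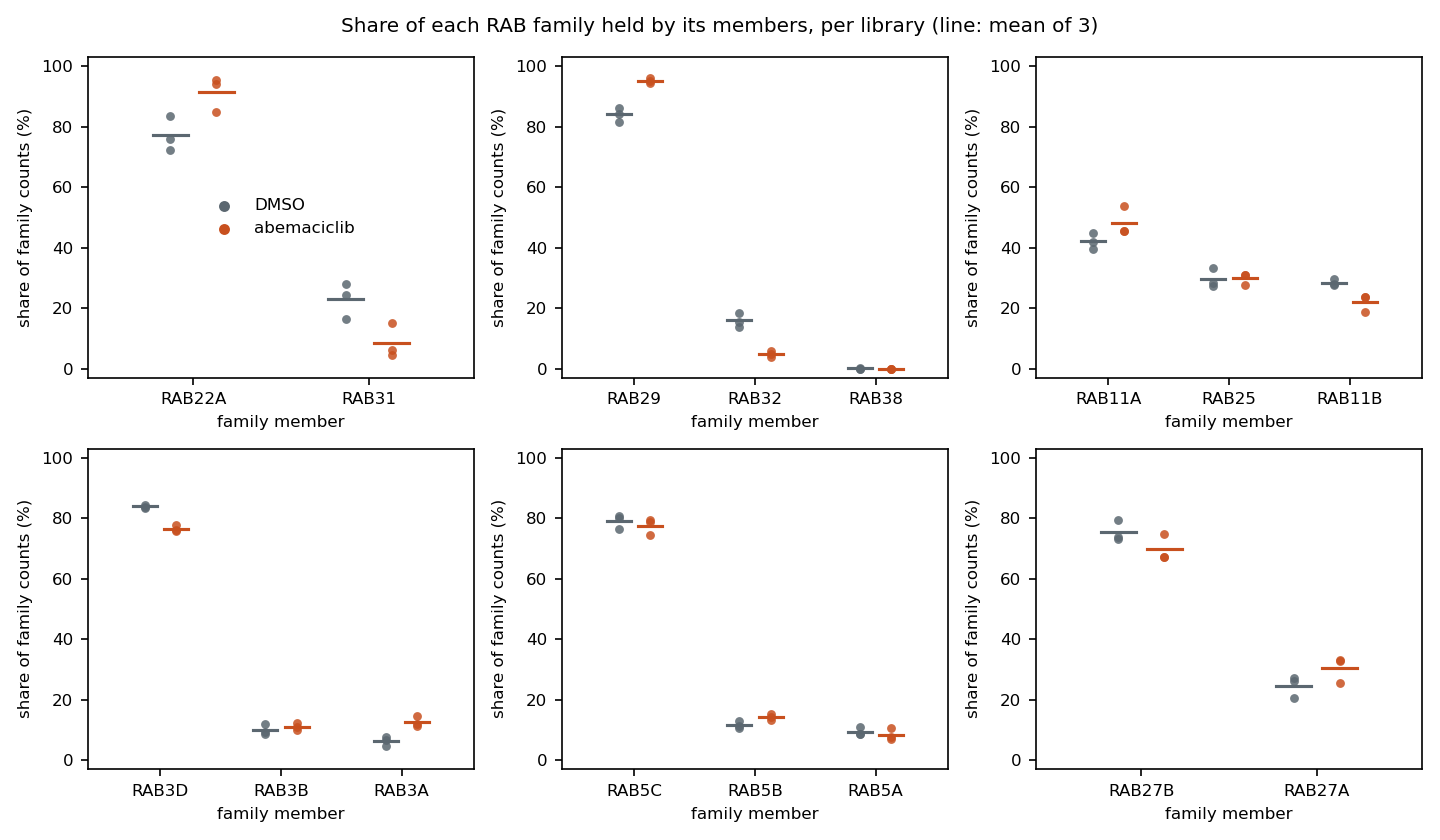
Share of a family's counts held by each member, in percent, with a point for each DMSO and abemaciclib library and a line at the mean of 3. RAB29 takes a larger share over RAB32 with abemaciclib (84.0 to 95.2%), RAB31 a smaller share beside RAB22A (22.9 to 8.53%), and RAB11A a larger share over RAB11B.

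Genes that act on RAB proteins or are recruited by them were counted from lists written by role. Of 189 such genes 164 were tested, and 22 rose and 10 fell, 19.5% beside the 25.7% of all genes. Their median log2 fold change was 0.11. The number that rose was 14 without DMSO replicate 2.

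Of the 8 genes of prenylation and membrane extraction, all tested, 0 rose (also at an unadjusted P under 0.05) and 1 fell. That is 12.5% called, beside 25.7% of all genes. RABGGTA, the alpha subunit of the enzyme that attaches geranylgeranyl groups to RAB proteins, was at 35.2, 28.7 and 29.5 CPM with DMSO and at 18.1, 23.1 and 16.9 CPM with abemaciclib (log2 fold change -0.68, adjusted P = 0.01408). Its groups did not overlap, but the call was lost without DMSO replicate 1 (adjusted P = 0.0779), and 0 to 3 genes of the list fell with single libraries left out (2 without DMSO replicate 3, 3 without abemaciclib replicate 3). GDI2, a GDP dissociation inhibitor, had a log2 fold change of -0.25 and did not pass the test.

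Among exchange factors 3 of 41 rose and 3 fell (14.6%, beside 25.7% of all genes). BLOC1S1, a subunit of the BLOC-1 complex and not itself an exchange factor, was among those that fell. RAB3IP, or Rabin8, which activates RAB8 at the cilium and in exocytosis, had the largest fall among those of at least 10 CPM, from 96.9, 102.2 and 127.7 CPM to 41.2, 39.8 and 29.3 CPM (log2 fold change -1.57, adjusted P = 3.495e-09). The transcripts of its target RAB8A and of RAB8B did not pass. SH3BP5, an exchange factor of RAB11, rose from 25.4, 23.6 and 23.8 CPM to 43.95, 46.9 and 46.0 CPM (log2 fold change 0.91, adjusted P = 0.0001908), although SH3BP5-AS1 lies antisense to it and could share its reads. HPS1, which with HPS4 activates RAB32 and RAB38, rose from 56.4 to 85.1 CPM in group means (log2 fold change 0.60, adjusted P = 0.001272), while RAB32 itself fell. PYROXD2 is annotated on the same strand at the 3′ end of HPS1.

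In the list of GTPase-activating proteins 4 of 35 genes rose and 1 fell (2 without abemaciclib replicate 1 or 2). The list was written by role, and whether each product has this activity on a RAB protein was not tested. The calls were 14.3% of those tested, beside 25.7% of all genes. TBC1D8B and TBC1D24 rose (log2 fold changes 0.97 and 0.76, adjusted P = 0.009668 and 0.004646). TBC1D15, which acts on RAB7 at lysosomes and mitochondria, fell from 80.5, 71.8 and 82.8 CPM to 46.1, 45.7 and 49.2 CPM, and no library overlapped (log2 fold change -0.74, adjusted P = 0.000154).

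Of the effectors of secretory RAB proteins 5 of 32 rose and 2 fell (21.9%, beside 25.7% of all genes). Both that fell, SYTL4 (granuphilin) and EXPH5, bind RAB27, whose own transcript RAB27B fell as well. SYTL4 was at 208.3, 208.0 and 242.8 CPM with DMSO and at 102.4, 94.98 and 89.8 CPM with abemaciclib, with a wide gap between the groups (log2 fold change -1.20, adjusted P = 1.435e-09). SRPX2 lies on the opposite strand at its 3′ end. EXPH5 was at 24.2, 36.0 and 28.3 CPM with DMSO and at 7.53, 10.1 and 19.4 CPM with abemaciclib (log2 fold change -1.25, adjusted P = 0.0007428). The other RAB27 effectors tested did not pass: MLPH had a log2 fold change of -0.24, SYTL2 -0.72, SYTL1 -0.06 and MYRIP -0.08 (adjusted P = 0.129, 0.304, 0.897 and 0.908). Without abemaciclib replicate 2 or 3 the number of secretory effectors that fell was 4, and without DMSO replicate 3 the number that rose was 3. USO1, the tether that RAB1 recruits at the Golgi, rose from 53.4 to 81.2 CPM in group means (log2 fold change 0.61, adjusted P = 0.001035).

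Early endosome effectors rose in 3 of 15 cases and fell in 0, with 1 lower at an unadjusted P under 0.05. The share called was 20.0%, beside 25.7% of all genes. RABEP1 (rabaptin-5), which holds RAB5 in its active state, was at 116.5, 119.6 and 145.2 CPM with DMSO and at 172.5, 194.1 and 160.5 CPM with abemaciclib (log2 fold change 0.47, adjusted P = 0.002979), and its groups did not overlap. NUP88 lies on the opposite strand at its 3′ end, and ATP2A1 at that of RABEP2, so that reads may be mixed. RABEP2 and ANKFY1, both RAB5 effectors, lay near the threshold (adjusted P = 0.04903 and 0.04207), and their calls were lost in 9 and 6 of 12 alternatives. The number of these effectors that rose was 1 with DESeq2, and again 1 when DMSO replicate 1, DMSO replicate 2 or abemaciclib replicate 1 was left out.

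Recycling effectors rose in 4 of 13 cases and fell in 1 (38.5%, beside 25.7% of all genes). The list is short, and it was not tested as a set. RAB11FIP1, RAB11FIP4 and RAB11FIP5 encode the proteins that tie RAB11 and RAB25 to motors. RAB11FIP1 was at 1092, 1089 and 1095 CPM with DMSO and at 1329, 1337 and 1371 CPM with abemaciclib, above any RAB transcript itself (log2 fold change 0.30, adjusted P = 0.007781). RAB11FIP4 rose from 59.5 to 93.8 CPM and RAB11FIP5 from 20.5 to 32.7 CPM in group means (log2 fold changes 0.65 and 0.67, adjusted P = 0.001154 and 0.01591). EHD1, an ATPase that cuts recycling tubules, was at 61.7, 64.4 and 56.3 CPM with DMSO and at 133.4, 110.4 and 99.5 CPM with abemaciclib, well apart (log2 fold change 0.91, adjusted P = 4.827e-06). Other genes of the RAB11 route did not pass: RAB11FIP2 and RAB11FIP3 had log2 fold changes of 0.12 and 0.33 (adjusted P = 0.763 and 0.253), and SH3BP5L, the relative of SH3BP5, had 0.16 (adjusted P = 0.436). Without DMSO replicate 2 the number of recycling effectors that rose was 2, since the calls of RAB11FIP1 (adjusted P = 0.05034) and RAB11FIP5 were lost, and that of RAB11FIP5 was lost without DMSO replicate 3 too. An unnamed gene, ENSG00000280064, lies on the opposite strand at the 3′ end of RAB11FIP1.

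Of the effectors of late endosomes and lysosomes 3 of 21 rose and 2 fell (23.8%, beside 25.7% of all genes). Without DMSO replicate 1 the number that rose was 1, and with DESeq2 or without DMSO replicate 2, DMSO replicate 3 or abemaciclib replicate 2 the number that fell was 1. VPS18, a core subunit of the complexes that tether endosomes and lysosomes, was at 32.3, 37.5 and 34.6 CPM with DMSO and at 86.4, 62.6 and 78.5 CPM with abemaciclib (log2 fold change 1.12, adjusted P = 2.279e-06). The core or tether subunits VPS11, VPS16, VPS33A, VPS39 and VPS41 did not pass the test.

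**Figure D4:**
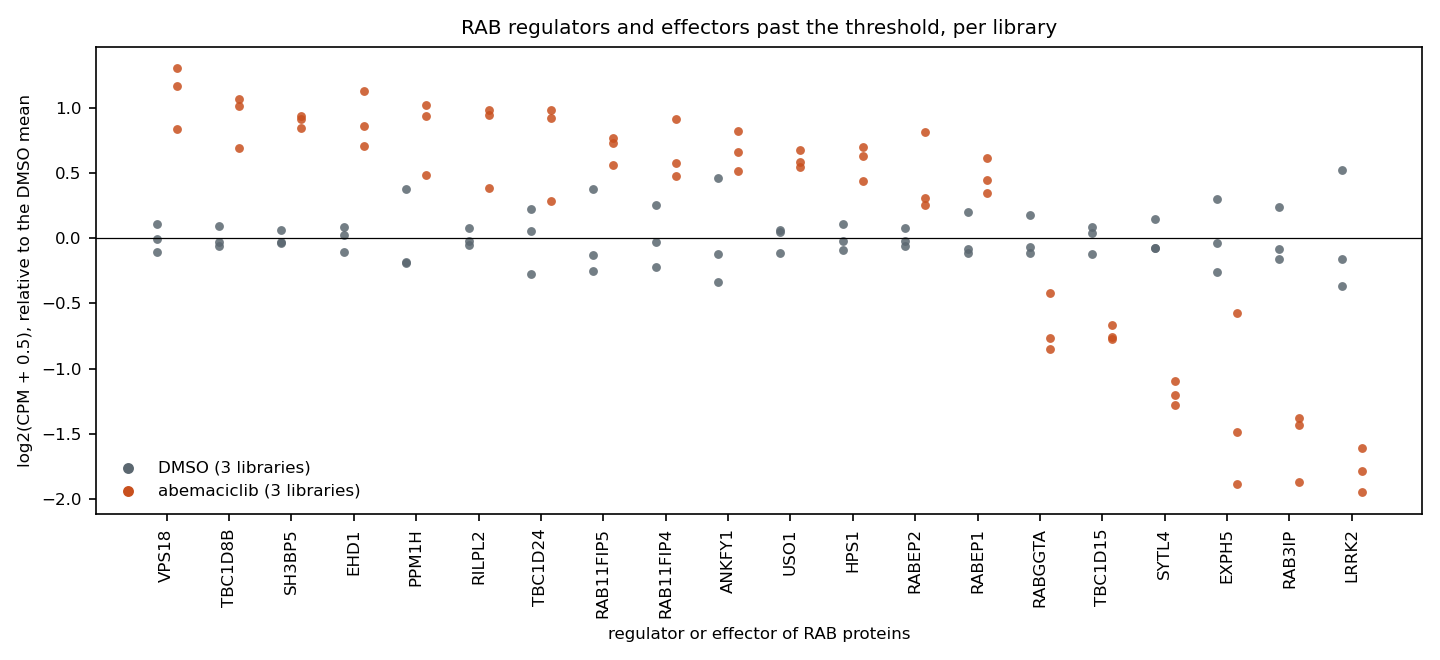
Named regulators and effectors of RAB proteins past the threshold: log2(CPM + 0.5) in each library minus its mean over DMSO, with DMSO and abemaciclib points side by side. LRRK2, RAB3IP, EXPH5 and SYTL4 lie lowest with abemaciclib, and VPS18, SH3BP5 and EHD1 are among the highest.

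LRRK2 is a kinase that phosphorylates RAB proteins at membranes, and it is named here after its values were seen, since its mean is under 10 CPM. It and some of the genes tied to it are set side by side as a description, with no list or test of their own. It was at 10.7, 12.4 and 20.2 CPM with DMSO and at 4.22, 3.68 and 3.23 CPM with abemaciclib, and the groups did not overlap (log2 fold change -1.95, SE 0.37, adjusted P = 0.0001745, holding in all 12 other fits). PPM1H, the phosphatase that reverses its action on RAB proteins, was at 12.7, 18.9 and 12.7 CPM with DMSO and at 20.5, 28.2 and 29.9 CPM with abemaciclib (log2 fold change 0.83, adjusted P = 0.009131; 0.05093 without DMSO replicate 1). RILPL2, which binds the phosphorylated form of RAB8A and RAB10, rose from 9.83 to 17.4 CPM in group means (log2 fold change 0.83, adjusted P = 0.02415), a call lost in 6 of 12 alternatives, while its relative RILPL1 had a log2 fold change of 0.34 and did not pass (adjusted P = 0.555). Among the RAB genes set beside the kinase here, RAB29 rose, RAB12 and RAB32 fell, and RAB8A and RAB10 did not pass. They are a chosen few and not all RAB genes tied to it, so they give no direction for the whole. These are transcript levels, and neither kinase activity nor RAB phosphorylation was measured.

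The 19 members not tested had at most 5 counts in every library, except RAB33B with 7, 4 and 13 counts with DMSO and 4, 18 and 9 with abemaciclib. Of them 8 had 0 counts in all 6 libraries (RAB4B, RAB6D, RAB39A, RAB40A, RAB41, RAB42, RAB43 and RAB44). RAB4B and RAB43 share their 3′ ends with readthrough genes on the same strand, MIA-RAB4B and ISY1-RAB43, so that reads could be left uncounted there, and both readthrough genes had 0 counts too. MXD3 is annotated on the same strand at the 3′ end of RAB24, where reads could be left uncounted as well. RAB6B, the neuronal form of RAB6A, had 3, 2 and 1 counts with DMSO and 0 in each abemaciclib library, and RAB6C had 0 in each DMSO library and 3, 1 and 1 with abemaciclib, differences that cannot be read at this depth.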

How the data were processed

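The deposited values are raw counts per gene. From single-end QuantSeq libraries of mRNA 3′ ends, the authors aligned trimmed reads to hg38 with STAR 2.7.5b and counted them on a GENCODE annotation with featureCounts 2.0.1; the labels and the paper name the kit differently, and the strand setting is not given in the sources used here. Identifiers were matched to symbols and coordinates of a later GENCODE release on GRCh38 (60401 of 60656 rows). The table holds no normalization or filter, and 40227 genes had 0 counts in all 6 libraries.

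Abemaciclib was compared with DMSO with edgeR 4.0.16 in R 4.3.3 (TMM, filterByExpr, glmQLFit, glmQLFTest, group only, Benjamini-Hochberg over 10863 genes, threshold 0.05). The SE is the log2 fold change divided by the square root of F. CPM values are TMM-scaled. The coefficient of variation between replicates was 13.2%. Limits from counts cover counting error only. Tested on simulated counts for this comparison, the fit called 173 of 10645 genes, 167 of them changed. It recovered 71.2% of changes of 1 and 95.8% of changes of 2 on the log2 scale. With none changed it called 0 of 10662. The simulation held a far smaller share of changed genes than the 25.7% called in these data. Recovery depends on that share, so these figures need not hold here.

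Members and lists were chosen with earlier results of these data known, and promoter motifs after the values were seen. Values per library were given for members past the threshold, for the most abundant member of each compartment, and for RAB5A, RAB7A, RAB11A and RAB17, and for up to 3 genes past the threshold with at least 10 CPM from each list; any further gene was chosen after its values were seen. Genes annotated within 500 bases of a 3′ end were looked up. Among the members, 8 had such a neighbour on the opposite strand and 6 on the same strand, and not all of these are named. Alternatives were DESeq2 1.42.0, its size factors or total counts as scaling, other count filters, a replicate block, each library left out, and members at several compartments left out.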

Additional observations from a re-analysis of the deposited data

How the results depend on the processing

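Of 281 values for the counts, medians and shares compared, 253 were labelled the same under the alternatives. So were 638 of 705 values for single genes, lists and sums. A count was the same if equal or close in size, and a median or sum if within the SD of the abemaciclib libraries. A share needed only its sign, and a single gene its sign and its call, so that their sizes could change. Only shares whose groups did not overlap were included, and leaving out a library cannot turn the sign of such a share. Their label was in effect fixed in advance, so these values say nothing about how stable the results are. With DESeq2, 3 members fell rather than 5, and the early endosome rise and the falls in the late endosome and lysosome group and at other sites went to 0. With at least 10 counts in every library, the early endosome fall went to 0, since RAB31 was not tested. Leaving out members found at several compartments took the exocytic, early endosome and recycling falls and the late endosome and lysosome rise to 0, by construction. A log2 fold change of at least 1, a choice made after seeing the data, left 2 members higher and 2 lower. Without single libraries, 5 to 8 members rose and 3 to 5 fell; the ER and Golgi rise, the early endosome rise and the falls in the late endosome and lysosome group and at other sites each ranged from 0 to 1, and 14 to 25 of the regulators and effectors rose. The sign turned for RAB5C (-0.037 without abemaciclib replicate 1; -0.037 to 0.13 without single libraries) and RAB5A (0.014 without DMSO replicate 1; -0.23 to 0.014). Where no construction is named, the cause was not tested.

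Replicate numbers showed no sign of pairing the samples: same-numbered libraries correlated at -0.04, 0.01 and -0.09 in their deviations from the group means. Differently numbered libraries correlated at -0.055 to 0.096. These values cannot show whether the cultures were paired by design. With the replicate block 6 members rose and 4 fell, with 0 early endosome rises and 0 falls at other sites, and over all genes 1139 rose and 1280 fell. Over all genes, DESeq2 called 1069 higher and 1165 lower, and leaving out a library gave 981 to 1412 higher and 1132 to 1529 lower. The largest numbers came without abemaciclib replicate 3. Its counts stood furthest from those of its group (chi-square per degree of freedom 7.1 and 7.48, beside 2.86 to 4.26 for other pairs). Its correlations of log CPM, 0.9667 and 0.9695, were close to those of other pairs, 0.9678 to 0.9731. Depth limits the members under 10 CPM most, where intervals spanned more than a log2 unit.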

Other observations

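Members whose libraries did not overlap between groups but which did not pass the threshold were RAB13 and RAB17, higher in all 3 abemaciclib libraries, and RAB3D, RAB6A and RAB34, lower in all 3. RAB34, a GTPase of lysosome position and of the cilium, was at 22.5, 20.97 and 22.3 CPM with DMSO and at 16.9, 16.9 and 17.2 CPM with abemaciclib, a log2 fold change of -0.37 with an interval from -0.81 to 0.08.

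EHD3, a relative of EHD1 that also acts at recycling endosomes, had the opposite direction at a low level: 4.33, 4.73 and 4.52 CPM with DMSO and 1.20, 1.23 and 0.81 CPM with abemaciclib (log2 fold change -2.03, edgeR adjusted P = 0.009131). DENND1B, an exchange factor of RAB35, fell from 297.1, 280.1 and 275.3 CPM to 200.8, 221.1 and 222.4 CPM (log2 fold change -0.40, edgeR adjusted P = 0.002569). RAB35 itself had a log2 fold change of -0.27 and did not pass. EHD3 and DENND1B were chosen for naming after their values were seen.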
